A study of Mus musculus with 20 samples.

Results

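The genes that carry glucose to pyruvate, pyruvate to lactate and glucose 6-phosphate through the pentose phosphate shunt were followed here in 20 libraries of BV-2 cells, an immortalised mouse microglial line. The module held 35 gene symbols, taken by name from the pathways with no cut-off on a measured value. Earlier results of these data were known when the list was made. The symbols matched 36 rows of a table of 55487 genes, because *Aldoa* was listed under a pair of Ensembl identifiers. The libraries formed 4 groups of 5: young and aged cells, each either untreated or given bacterial lipopolysaccharide (LPS) at 100 ng/ml for 6 hours. Young cells were wild-type BV-2 at a low passage. Aged cells were wild-type BV-2 kept in culture for a long time, so that age here means time in a dish for a dividing line, and how many independent long-term cultures stood behind the 5 libraries is not given in the sources used here. Each replicate number carried a batch label, 1 to 5, and every batch held 1 library of each group. The p-values therefore measure the spread between these libraries, which may be partly technical.

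Glycolysis begins with a glucose transporter and a hexokinase, passes its committed step at phosphofructokinase, and ends with pyruvate kinase. Lactate dehydrogenase then turns pyruvate into lactate, which leaves the cell through the monocarboxylate transporters, while pyruvate dehydrogenase kinase holds pyruvate back from the mitochondrion. The pentose phosphate pathway branches off at glucose 6-phosphate and yields NADPH and ribose. Macrophages and microglia exposed to LPS are known for raising glycolysis, and the hypoxia-inducible factor encoded by *Hif1a* is a known activator of many of these genes.

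The libraries held 11371508 to 16829292 counts each. Of the 14 microglial markers examined, 13 lay above a floor of 3 counts in every untreated library and 11 in every LPS library. *Sall1* had 0 counts throughout, and *Cx3cr1* and *P2ry12* were at or near the floor after LPS. Astrocyte, neuron, fibroblast and endothelial markers were at or near 0 in the 20 libraries, with summed levels of at most 1.55 CPM (read counts scaled to library size), and of the oligodendrocyte markers *Cnp* was above the floor in each group, at 16.7 to 19.4 CPM on average. The 7 LPS response genes used as a control rose in both ages. CPM values below were scaled by the trimmed mean of M values (TMM), and levels are compared between genes only as RPKM, which is CPM divided by the summed exon length of the gene in kilobases.

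The most abundant members lay in the lower part of the pathway, from aldolase to lactate dehydrogenase. In untreated young cells, *Aldoa*, the main aldolase, had an RPKM of 397 ± 28.2 (SD, n = 5), *Pkm*, pyruvate kinase, 374 ± 16.7 and *Ldha*, the muscle-type subunit of lactate dehydrogenase, 354 ± 12.7. *Gapdh* followed at 264 ± 23.3. The spread of *Pkm* overlapped with those of *Aldoa* above and *Ldha* below it. At the other end, *Bnip3*, a mitophagy receptor known as a hypoxia target, *Rpia*, ribose 5-phosphate isomerase, and *Pfkfb4* had RPKM values of 5.39 ± 0.675, 5.69 ± 0.753 and 4.82 ± 0.321, whose SD ranges overlapped. The genes that responded most to LPS sat low in this order: *Slc2a6* had 14.2 ± 1.48 and *Slc2a1* 17.8 ± 1.74. Together the members took 1.26% ± 0.0449 (SD, n = 5) of the counts in young untreated libraries, 1.34% ± 0.0481 in aged untreated, 1.32% ± 0.0875 in young LPS and 1.44% ± 0.0909 in aged LPS libraries. Young untreated libraries ranged from 1.2042% to 1.3149% and aged LPS libraries from 1.3155% to 1.5322%, so these did not overlap, and every other pair of groups did.

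**Figure D1:**
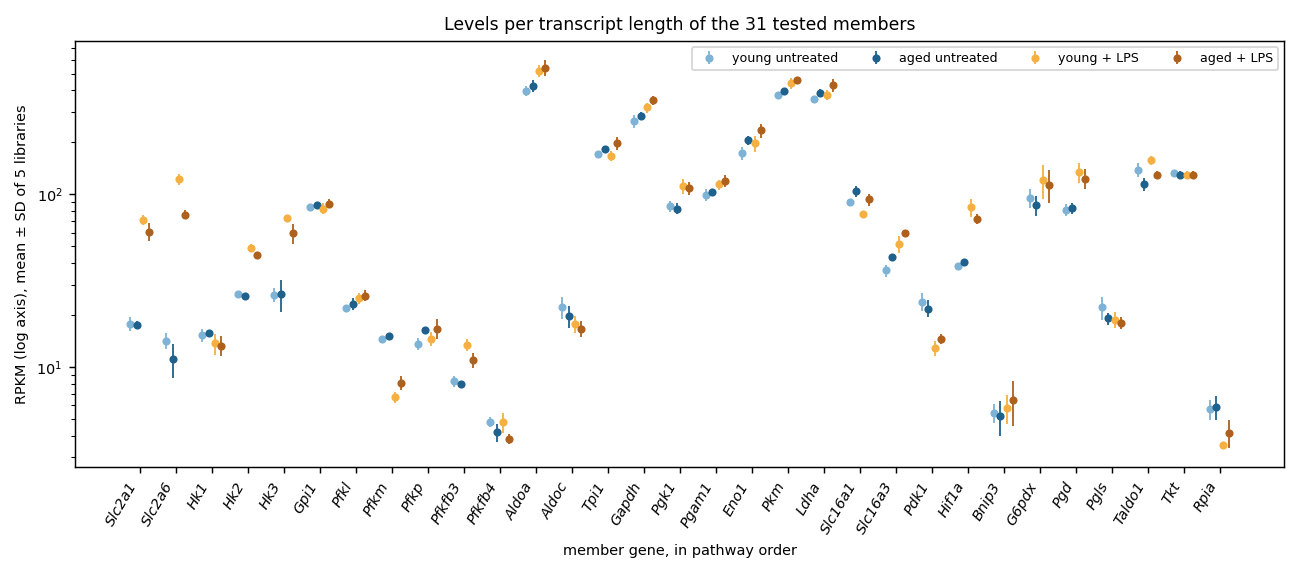
RPKM (log axis) of the 31 tested members in pathway order, as mean ± SD of 5 libraries in each of the 4 groups. *Aldoa*, *Pkm* and *Ldha* sit at the top and *Pfkfb4*, *Bnip3* and *Rpia* at the bottom. LPS and untreated groups separate most clearly at *Slc2a1*, *Slc2a6* and *Hk3*.

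Some members were missing from these cells. *Eno2*, the neuronal enolase, and *Ldhb*, the heart-type subunit of lactate dehydrogenase, had 0 counts in the 20 libraries, and *Egln3*, a HIF prolyl hydroxylase, had 2 counts in all. *Slc2a3*, the neuronal-type glucose transporter GLUT3, had 37 counts in all and at most 6 in a library. These 4 genes did not pass the filter on low counts, which left 31 members among 12799 tested genes. The second *Aldoa* identifier covers a short model just upstream of the main gene and reached at most 33 counts in a library. It is left out of the counts below, although its level fell after LPS by 1.15 ± 0.295 (SE) on the log2 scale in young and 1.27 ± 0.274 in aged cells, opposite to the main *Aldoa* row.

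Promoters of some members are shown here, as the 250 bases before the start listed by RefSeq (GRCm38.p6), in the direction of transcription. *Slc2a6*, *Slc2a1* and *Hk3* had the largest rises with LPS in both ages. *Slc16a3* and *Slc16a1* were included as lactate transporter genes and not for the size of their LPS change. Capitals mark the letters ACGTG on either strand, the core that hypoxia-inducible factors are known to bind, which also lies inside the E-box CACGTG.
Slc2a1 (chr4:119108495-119108744, plus strand): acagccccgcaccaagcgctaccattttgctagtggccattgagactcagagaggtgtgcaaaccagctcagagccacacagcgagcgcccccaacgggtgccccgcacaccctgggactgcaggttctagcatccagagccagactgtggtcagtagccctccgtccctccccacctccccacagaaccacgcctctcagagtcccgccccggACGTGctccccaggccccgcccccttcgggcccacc
Slc2a6 (chr2:27027999-27028248, minus strand): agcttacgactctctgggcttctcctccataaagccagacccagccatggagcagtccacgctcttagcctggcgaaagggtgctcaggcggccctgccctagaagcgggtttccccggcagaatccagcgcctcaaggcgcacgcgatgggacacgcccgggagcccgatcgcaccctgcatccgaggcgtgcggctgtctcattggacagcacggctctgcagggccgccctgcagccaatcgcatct
Hk3 (chr13:55021386-55021635, minus strand): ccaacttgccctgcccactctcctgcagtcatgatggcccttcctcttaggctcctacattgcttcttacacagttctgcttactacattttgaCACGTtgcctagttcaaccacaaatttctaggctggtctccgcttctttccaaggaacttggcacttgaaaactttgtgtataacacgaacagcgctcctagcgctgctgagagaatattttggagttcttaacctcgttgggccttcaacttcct
Slc16a3 (chr11:120948817-120949066, plus strand): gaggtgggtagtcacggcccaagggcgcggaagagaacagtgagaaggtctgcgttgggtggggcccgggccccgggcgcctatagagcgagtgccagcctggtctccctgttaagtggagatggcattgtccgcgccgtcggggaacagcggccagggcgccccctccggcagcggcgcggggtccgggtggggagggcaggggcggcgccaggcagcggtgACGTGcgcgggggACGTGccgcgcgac
Slc16a1 (chr3:104638414-104638663, plus strand): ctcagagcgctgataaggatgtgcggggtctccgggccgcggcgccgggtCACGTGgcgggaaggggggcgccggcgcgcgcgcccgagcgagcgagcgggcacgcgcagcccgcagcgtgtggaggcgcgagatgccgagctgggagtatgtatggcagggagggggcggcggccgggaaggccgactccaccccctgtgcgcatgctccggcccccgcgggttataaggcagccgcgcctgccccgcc
The letters stood 27 and 14 bases before the start of *Slc16a3* and 36 before that of *Slc2a1*. *Slc2a6* had none in this window. In *Slc16a1* they formed an E-box that began 200 bases before the start. *Pfkm* has several listed starts and is not printed.

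Across the table of promoters, 34 of the 35 members were found, with 48 starts, of which 37.5% held the letters, against 16.6% of 32817 promoters of the same length. No match was made for base composition. Counted by gene, 15 of the 34 members held the letters at 1 start or more, and no such count was made over all genes. Of the 16 that rose after LPS in both ages as described next, 10 held them, as did 2 of the 4 that fell. Among members called in 1 age, 0 of 2 lower in young, 1 of 2 higher in aged (*Ldha*) and 0 of 1 lower in aged cells held them. Of the 6 called in neither age, 1 held them. Whether these groups differ was not tested. The NF-kappaB consensus occurred before *Pgk1* and at 1 start of *Pfkm*, that is in 4.2% of the members' starts and 7.2% of the promoters in the table. A match in letters is a description of the sequence and not a binding site.

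LPS changed most of the module, as it did most tested genes. In young cells 16 members rose and 6 fell, and in aged cells 18 rose and 5 fell, by edgeR's quasi-likelihood test with Benjamini-Hochberg adjustment below 0.05 over the 12799 genes. The 5 that fell in aged cells became 3 without replicate 3 or replicate 4, each of which cost the calls of *Hk1* and *Slc16a1*. LPS moved the transcriptome broadly: 31.2% of tested genes rose and 33.5% fell in young cells, and 27.5% rose and 26.9% fell in aged cells. The share of members called, 71.0% in young and 74.2% in aged cells, thus stood beside 64.6% and 54.4% of tested genes. The median log2 change of the members was 0.184 in young and 0.189 in aged cells, against -0.011 and 0.001 over the tested genes. LPS and untreated libraries did not overlap for 16 members in young and 15 in aged cells, with 49.1% and 40.1% of tested genes doing the same. In bulk libraries a changed level per cell and a changed share of cells cannot be told apart.

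The 16 genes that rose in both ages spanned the pathway from uptake to export: *Slc2a1*, *Slc2a6*, *Hk2*, *Hk3*, *Pfkl*, *Pfkfb3*, *Aldoa*, *Gapdh*, *Pgk1*, *Pgam1*, *Eno1*, *Pkm*, *Slc16a3*, *Hif1a*, *Pgd* and *Taldo1*. How many of all tested genes rose in both ages was not counted. Of the 16, *Pfkl*, *Pgam1*, *Eno1* and *Taldo1* turned negative in some fits under another scaling. *Gapdh* and *Pkm* lost the call under it in both ages. The 4 that fell in both were *Pfkm*, *Slc16a1*, *Pdk1* and *Rpia*. The changes differed greatly in size, as the plot of LPS changes shows: 3 rises exceeded 1 on the log2 scale in both ages, while those from *Aldoa* to *Pkm* stayed between 0.18 and 0.38.

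The scaling matters for the small changes. With library sizes alone in place of TMM, the median over the tested genes moved to -0.23 in young and -0.16 in aged cells, and the members' calls became 9 higher and 12 lower in young and 10 higher and 10 lower in aged cells. *Pfkl*, *Pgam1*, *Eno1* and *Taldo1* in young cells and *Pfkl* and *Ldha* in aged cells then had negative, uncalled values. Taken relative to the shifted median, *Pfkl* was at 0.19, *Pgam1* and *Eno1* at 0.20 and *Taldo1* at 0.20 in young cells. The small changes given below are therefore relative to the bulk of the tested genes.

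**Figure D2:**
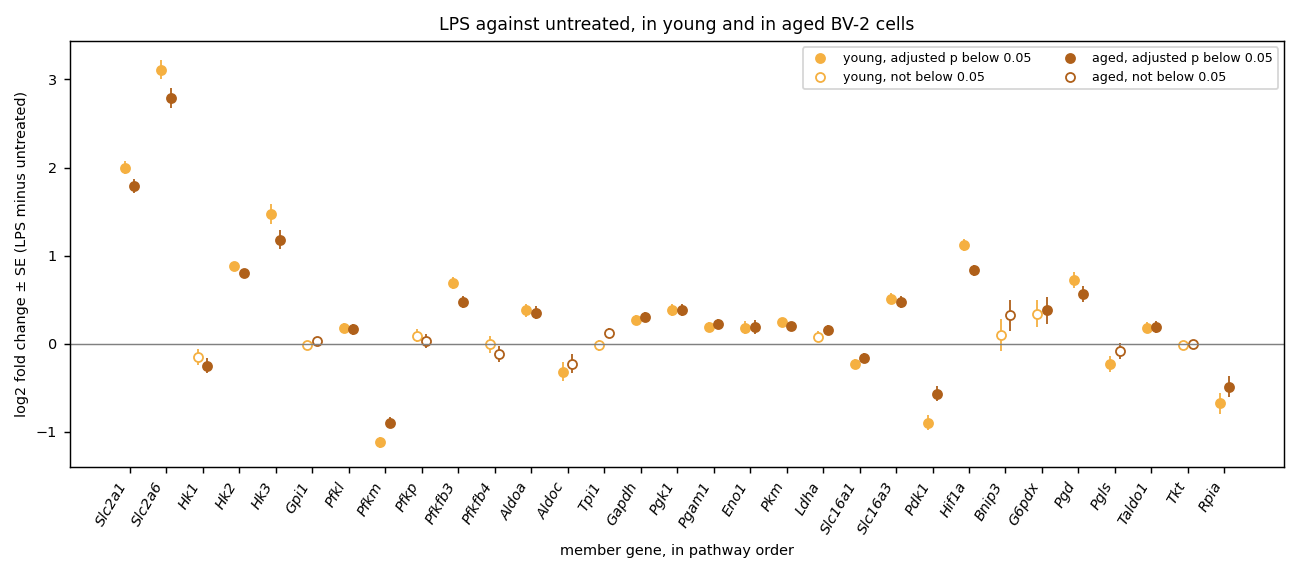
Log2 fold change (LPS minus untreated, ± SE) of the 31 tested members in pathway order, for young and aged cells. Filled points passed the adjusted threshold. *Slc2a6* is highest in both ages (3.11 and 2.79) and *Pfkm* lowest (-1.12 and -0.90).

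The genes of glucose transporters showed the largest rises. These are RNA levels, and glucose uptake was not measured. *Slc2a6* encodes GLUT6, a glucose transporter family member known from leukocytes and macrophages. Young untreated libraries 1 to 5 held 46.8, 40.8, 40.7, 51.8 and 47.5 CPM of *Slc2a6*, and young LPS libraries 389, 443, 392, 363 and 380 CPM. Aged untreated libraries held 46.9, 29.8, 27.7, 32.3 and 40.9 CPM and aged LPS libraries 266, 234, 254, 235 and 236 CPM. The LPS libraries lay far above the untreated ones in both ages, and every aged LPS library lay below every young LPS library. The change was 3.11 ± 0.110 (SE) on the log2 scale in young cells (8.64-fold, adjusted p = 1.82e-16) and 2.79 ± 0.110 in aged cells (6.90-fold, adjusted p = 2.06e-15).

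*Slc2a1* encodes GLUT1, the widespread basal glucose transporter. Its level was 68.6, 60.5, 68.1, 54.0 and 60.2 CPM in young untreated and 228, 239, 260, 252 and 268 CPM in young LPS libraries. Aged untreated libraries held 58.7, 61.2, 61.8, 61.4 and 66.2 CPM and aged LPS libraries 245, 196, 187, 204 and 235 CPM. The range of the aged untreated libraries lay inside that of the young ones, and no untreated library reached the LPS libraries. The log2 change was 2.00 ± 0.076 in young (4.00-fold, adjusted p = 6.49e-16) and 1.79 ± 0.076 in aged cells (3.45-fold, adjusted p = 7.07e-15).

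The share of RNA between these transporter genes turned over. *Slc2a1* made up 55.6% ± 4.48 of their summed RPKM in young untreated libraries and 36.8% ± 2.68 after LPS, with *Slc2a6* taking the rest. In aged cells the share of *Slc2a1* went from 61.8% ± 5.44 to 44.3% ± 2.78. The ranges of untreated and LPS libraries did not overlap in either age. The summed RPKM of the glucose transporters was 31.9 ± 1.49 in young untreated, 194 ± 8.72 in young LPS, 28.7 ± 2.57 in aged untreated and 137 ± 9.74 in aged LPS libraries. This sum adds RNA levels and is not a measure of transport capacity. Shares within a family do not depend on the scaling between libraries, and they were not tested.

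The hexokinases, which trap glucose as glucose 6-phosphate, moved apart. *Hk3*, the hexokinase typical of myeloid cells, was at 112, 91.3, 96.9, 90.0 and 92.9 CPM in young untreated and 276, 259, 249, 275 and 279 CPM in young LPS libraries. In aged cells the values were 71.8, 90.6, 129, 100 and 93.8 CPM untreated and 233, 188, 263, 202 and 214 CPM after LPS. Untreated and LPS libraries did not overlap in either age. The log2 change was 1.47 ± 0.110 in young (adjusted p = 7.03e-11) and 1.18 ± 0.110 in aged cells (adjusted p = 4.78e-09). *Hk2*, the inducible, mitochondria-bound form, rose by 0.88 ± 0.043 and 0.80 ± 0.043, from 149 to 165 CPM in young untreated to 272 to 309 CPM in young LPS libraries. *Hk1*, the housekeeping form, had a log2 change of -0.15 ± 0.088 in young cells, which did not pass the test, and fell by 0.25 ± 0.088 in aged cells (adjusted p = 0.0213). Its call in aged cells was lost without replicates 2, 3 or 4, with an adjusted p of up to 0.125.

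Summed hexokinase RPKM went from 68.1 ± 2.28 to 135 ± 4.26 in young and from 67.8 ± 6.02 to 118 ± 8.83 in aged cells. *Hk1* made up 22.5% ± 2.15 of it in young untreated and 10.1% ± 1.27 in young LPS libraries, and 23.4% ± 2.29 and 11.3% ± 1.48 in aged ones. *Hk3* went from 38.5% ± 2.59 to 53.7% ± 1.94 and from 38.6% ± 4.78 to 50.6% ± 3.02. *Hk2* kept a similar share, between 36.2% and 39.0% on average in the 4 groups.

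**Figure D3:**
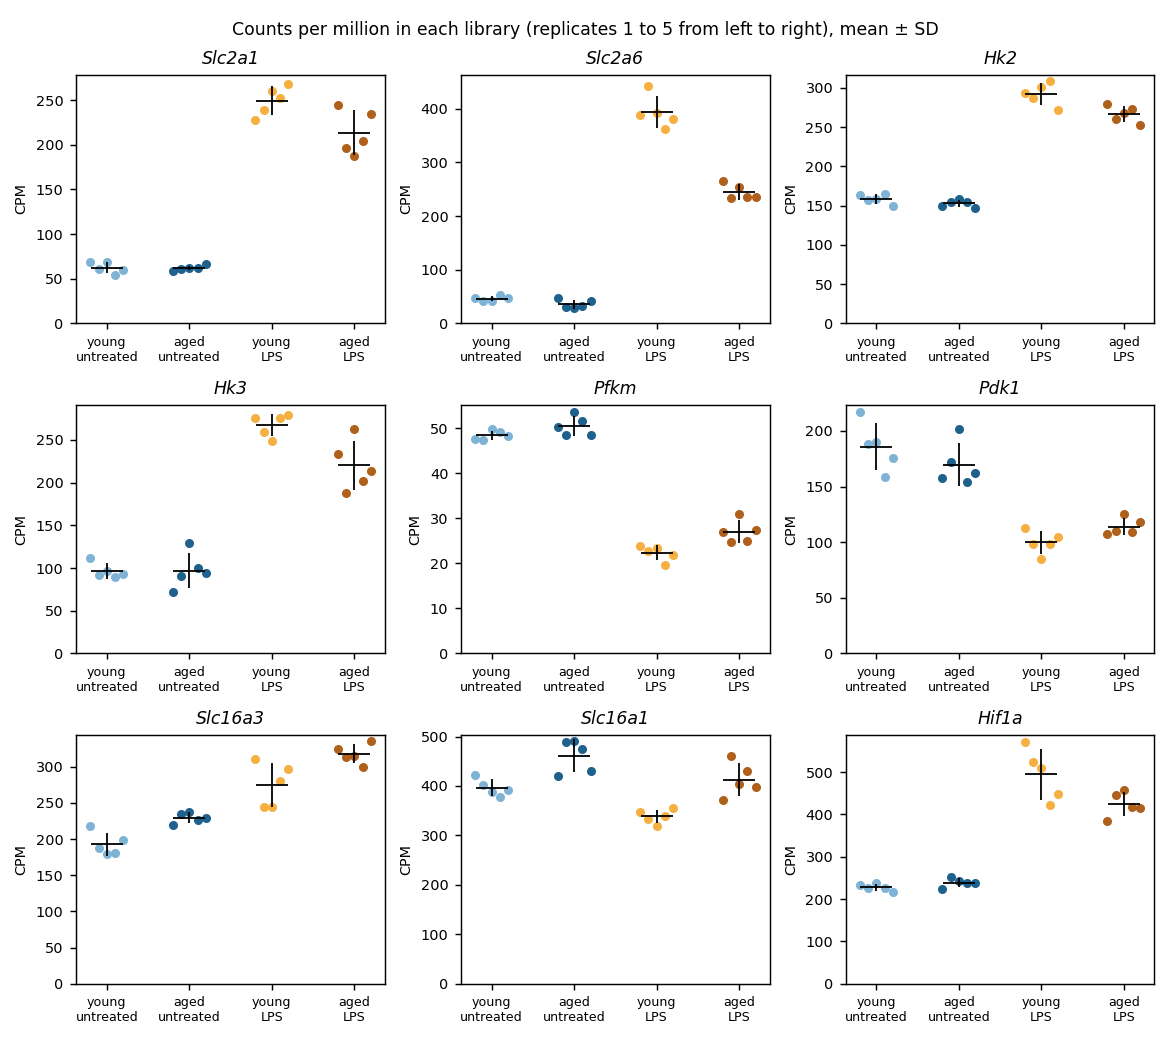
CPM in each library for 9 members, with the mean ± SD of each group (axes start at 0). LPS libraries lie above untreated ones for *Slc2a1*, *Slc2a6*, *Hk2*, *Hk3*, *Slc16a3* and *Hif1a* and below them for *Pfkm* and *Pdk1* within each age, and aged libraries of *Slc2a6* after LPS (234 to 266) lie below young ones (363 to 443).

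At phosphofructokinase, the committed step, the muscle-type subunit fell. *Pfkm* was at 47.6, 47.4, 49.7, 49.1 and 48.3 CPM in young untreated and 23.9, 22.8, 23.4, 19.7 and 21.8 CPM in young LPS libraries. Aged untreated libraries held 50.3, 48.5, 53.5, 51.6 and 48.5 CPM and aged LPS libraries 27.0, 24.7, 31, 24.9 and 27.3 CPM. The untreated libraries formed a narrow band well above the LPS libraries. The log2 change was -1.12 ± 0.063 in young (adjusted p = 4.22e-13) and -0.90 ± 0.061 in aged cells (adjusted p = 2.32e-11). *Senp1* overlaps *Pfkm* on the opposite strand with a mean of 1185 counts, and whether counting used the strand is not given in the sources used here.

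The liver-type *Pfkl* rose by 0.18 ± 0.059 in young and 0.16 ± 0.059 in aged cells, a direction that turned with library sizes alone. Its call was lost in young cells without replicate 5 (adjusted p = 0.0641) and in aged cells without replicates 2, 4 or 5 (up to 0.0889). The platelet-type *Pfkp* gave 0.09 ± 0.077 and 0.03 ± 0.077 and did not pass the test. Hence the share of *Pfkm* in the family's RPKM was 28.9% ± 0.481 in young untreated and 14.5% ± 1.56 in young LPS libraries, and 27.7% ± 1.54 and 16.0% ± 1.90 in aged ones, while that of *Pfkl* went from 43.9% ± 1.46 to 54.1% ± 1.80 and from 42.5% ± 1.93 to 51.2% ± 1.09. *Pfkfb3*, whose product makes the phosphofructokinase activator fructose 2,6-bisphosphate, rose by 0.69 ± 0.068 in young and 0.47 ± 0.068 in aged cells. Its relative *Pfkfb4* gave -0.01 ± 0.092 and -0.12 ± 0.094, neither past the test. *Gpi1*, the isomerase between these steps, gave -0.02 ± 0.050 and 0.03 ± 0.050.

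In lower glycolysis 6 of 8 tested genes rose in both ages, by small amounts. *Aldoa* rose by 0.38 ± 0.073 and 0.35 ± 0.072, *Pgk1*, phosphoglycerate kinase, by 0.38 ± 0.071 in both, and *Gapdh* by 0.27 ± 0.059 and 0.30 ± 0.059 in young and aged cells. *Pkm* rose by 0.24 ± 0.050 and 0.20 ± 0.050, *Pgam1* by 0.19 ± 0.060 and 0.22 ± 0.059, and *Eno1* by 0.18 ± 0.076 and 0.19 ± 0.076, where *Pgam1* and *Eno1* in young cells turned negative with library sizes alone. Under that scaling *Pgk1* was the only one of the 6 called in both ages (adjusted p = 0.0479 and 0.0104), while *Aldoa* was called in aged cells (0.0313) and not in young (0.0578), and *Gapdh* (0.493 and 0.0548) and *Pkm* (0.779 and 0.493) in neither. *Eno1* was the least secure of these, since its call in young cells was lost whichever replicate was left out, with adjusted p-values of 0.0508 to 0.0949, and reached 0.1 in aged cells without replicate 2. That of *Pgam1* in young cells was lost without replicate 4 (0.0565). *Aldoc*, the brain-type aldolase, fell by 0.32 ± 0.107 in young cells (adjusted p = 0.0112), and in aged cells its value of -0.23 ± 0.107 did not pass (adjusted p = 0.0684), but did with batch as a block (0.00948). *Tpi1* gave -0.02 ± 0.059 and 0.12 ± 0.059, the latter not called (adjusted p = 0.0944) except under the block (0.0141).

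Reads of these genes can be shared with near-identical copies. At 95% identity over 200 bases, 78 other genes with *Gapdh*-like transcripts were found, mostly processed pseudogenes, and they held counts that summed to 9.549% of those of *Gapdh*. Within the *Pkm* locus a same-strand model, Gm49759, held 5.94% of the count of *Pkm*. Copies of *Eno1*, *Ldha*, *Pgam1*, *Pgk1* and *Tpi1* held under 1% of the parent's count.

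At the end of the pathway, export and its neighbours split. *Slc16a3* encodes MCT4, the lactate exporter of strongly glycolytic cells. The study singled it out because its rise with age was shared by these libraries and by published microglia of aged mice and humans. It also reported higher mRNA by quantitative PCR and higher MCT4 protein in aged cells, and higher MCT4 protein in microglia of elderly human brains. Lactate in the medium and acidification did not differ between its untreated young and aged cultures. After LPS lactate rose in young and not in aged cultures, and acidification was lower in aged ones. RNA levels are not a measure of lactate export. The study's choice of *Slc16a3* rested in part on its direction with age in these libraries, so that direction is not independent evidence. Young untreated libraries held 218, 187, 179, 181 and 198 CPM and young LPS libraries 310, 244, 244, 280 and 297 CPM. Aged untreated libraries held 219, 235, 238, 226 and 229 CPM and aged LPS libraries 325, 314, 315, 300 and 336 CPM. LPS libraries lay above untreated ones within each age without overlap. The change was 0.51 ± 0.065 in young (adjusted p = 3.40e-07) and 0.47 ± 0.065 in aged cells (adjusted p = 1.68e-06).

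*Slc16a1* encodes MCT1, the broadly expressed monocarboxylate transporter, and went the other way. It was at 423, 402, 388, 378 and 391 CPM in young untreated and 347, 333, 320, 339 and 355 CPM in young LPS libraries. In aged cells it was at 420, 489, 491, 475 and 431 CPM untreated and 371, 460, 405, 431 and 398 CPM after LPS. The young groups did not overlap, and the aged groups did. It fell by 0.23 ± 0.057 in young (adjusted p = 0.00134) and by 0.16 ± 0.057 in aged cells (adjusted p = 0.0210), lower in 5 of 5 batches in both, although the aged call was lost without replicate 3 (adjusted p = 0.0795) or 4 (0.0501).

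The sum of both lactate transporters changed little with LPS and overlapped in range within each age, at RPKM values of 126 ± 6.68 and 128 ± 8.48 in young and 147 ± 8.72 and 153 ± 6.54 in aged untreated and LPS libraries. Within that sum *Slc16a3* went from 28.8% ± 1.01 to 40.2% ± 1.90 in young and from 29.3% ± 1.06 to 39.1% ± 2.65 in aged cells, with no overlap between untreated and LPS libraries. Untreated young and aged shares overlapped, at 27.8% to 30.0% and 28.3% to 30.6%.

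**Figure D4:**
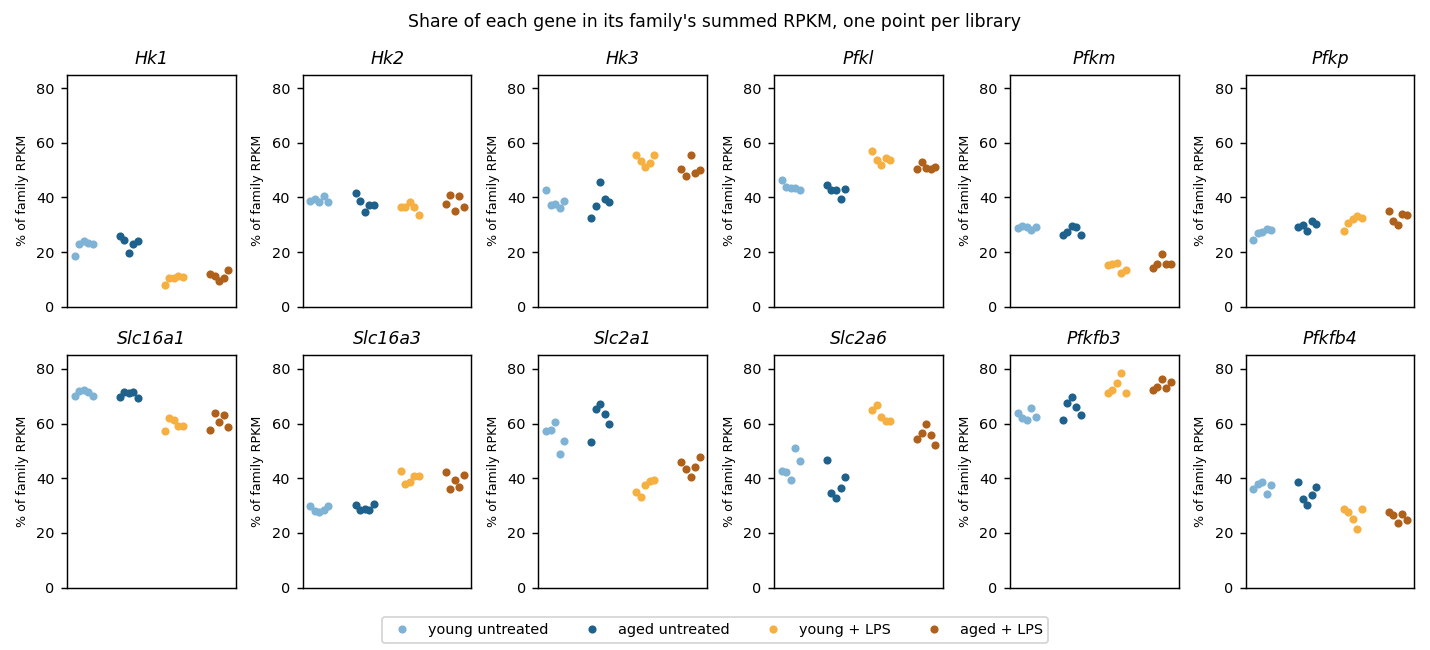
Share of each gene in the summed RPKM of its family (%, 1 point per library) for hexokinases, phosphofructokinases, monocarboxylate transporters, glucose transporters and the PFKFB enzymes. In both ages the shares of *Hk3*, *Pfkl*, *Slc16a3*, *Slc2a6* and *Pfkfb3* are higher after LPS and those of *Hk1*, *Pfkm*, *Slc16a1*, *Slc2a1* and *Pfkfb4* lower, and the share of *Hk2* overlaps across the groups.

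*Ldha* gave 0.08 ± 0.058 in young cells, short of the threshold, and rose by 0.15 ± 0.058 in aged cells (adjusted p = 0.0313), a call lost without replicates 1, 2, 4 or 5 (adjusted p up to 0.0928) and a direction that turned with library sizes alone. *Pdk1*, which blocks pyruvate entry into the citric acid cycle, fell by 0.90 ± 0.084 in young (adjusted p = 3.30e-09) and by 0.57 ± 0.084 in aged cells (adjusted p = 4.24e-06). Its young untreated libraries spanned 159 to 217 CPM and its young LPS libraries 85.2 to 113 CPM, and the aged ranges, 154 to 202 and 107 to 125 CPM, did not overlap either.

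*Hif1a* rose, in a locus where a same-strand model, Gm49321, held 2.79% of its count. Young untreated libraries held 233, 226, 237, 226 and 216 CPM and young LPS libraries 570, 524, 509, 423 and 447 CPM. Aged untreated libraries held 224, 252, 243, 237 and 239 CPM and aged LPS libraries 385, 445, 457, 417 and 416 CPM. The untreated libraries were tight in both ages, and the LPS libraries spread out above them. The log2 change was 1.12 ± 0.066 in young (adjusted p = 1.06e-12) and 0.83 ± 0.066 in aged cells (adjusted p = 3.39e-10). *Bnip3* stayed near 12.2 CPM in young untreated and 13.1 CPM in young LPS libraries, and its change of 0.32 ± 0.178 in aged cells did not pass (adjusted p = 0.137) except under the block (0.0489).

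In the oxidative arm of the pentose phosphate pathway the dehydrogenases had higher mean levels after LPS and the lactonase did not. Of these rises, that of *G6pdx* was called in aged cells only. *Pgd*, the second NADPH-producing dehydrogenase, rose by 0.72 ± 0.092 in young (adjusted p = 4.25e-07) and 0.56 ± 0.092 in aged cells (adjusted p = 1.93e-05). *G6pdx*, the rate-limiting dehydrogenase, rose by 0.38 ± 0.154 in aged cells (adjusted p = 0.0391), a call lost without replicates 2, 4 or 5 (adjusted p up to 0.106). With library sizes alone it was called in neither age (adjusted p = 0.521 in young and 0.236 in aged cells). In young cells it gave 0.34 ± 0.154 (adjusted p = 0.0593, and 0.0366 with the block), and 0.0154 without replicate 1, whose LPS library held 235 CPM against 372 to 445 CPM in the others. *Ikbkg* overlaps *G6pdx* on the opposite strand. *Pgls*, the lactonase between them, fell by 0.23 ± 0.091 in young cells (adjusted p = 0.0282, but 0.110 without replicate 2, 0.0505 without 3 and 0.0535 without 5) and gave -0.09 ± 0.091 in aged cells.

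In the non-oxidative arm *Taldo1*, transaldolase, rose by 0.18 ± 0.064 and 0.19 ± 0.065, with a negative value in young cells under library sizes alone. Its calls were lost without replicates 2 or 5 in young cells (adjusted p up to 0.113) and 1, 2 or 5 in aged cells (up to 0.0684). *Rpia* fell by 0.68 ± 0.119 (adjusted p = 2.88e-05) and by 0.49 ± 0.116 (adjusted p = 0.00111). *Tkt*, transketolase, which links both pathways, gave -0.02 ± 0.046 and -0.00 ± 0.046, at 954 to 974 CPM on average in the 4 groups.

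Age without LPS moved few members. In untreated cells 4 members were higher and 2 lower in aged than in young libraries, or 19.4% of those tested, beside 3.71% of tested genes higher, 7.81% lower and 11.5% in either direction. The median of the members was 0.035 and that of the tested genes -0.014. *Slc16a3* was higher by 0.25 ± 0.065 (1.19-fold, adjusted p = 0.0140) and *Slc16a1* by 0.22 ± 0.057 (1.16-fold, adjusted p = 0.0147). The untreated aged libraries of *Slc16a3*, given above, lay just above the young ones, the lowest at 219 and the highest young one at 218 CPM. For *Slc16a1* aged replicates 1 and 5 lay inside or near the young range.

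*Pfkp* was higher by 0.26 ± 0.077 (adjusted p = 0.0307), with 204 to 226 CPM in aged and 163 to 199 CPM in young libraries, and *Eno1* by 0.24 ± 0.076 (adjusted p = 0.0382). *Pitrm1* overlaps *Pfkp* on the opposite strand with a mean of 5016 counts. *Taldo1* was lower by 0.29 ± 0.065 on the log2 scale, at 248 ± 21.0 against 303 ± 29.5 CPM (adjusted p = 0.00525, lower in 5 of 5 batches). *Slc2a6* was at 35.5 ± 8.09 against 45.5 ± 4.75 CPM, a log2 difference of -0.36 ± 0.109 (adjusted p = 0.0347). Its aged replicates 1 and 5, at 46.9 and 40.9 CPM, lay within the young range. Aged and young libraries did not overlap for 2 members, *Pfkp* and *Slc16a3*, beside 10.4% of tested genes. The remaining 25 members did not pass, and with batch as a block *Ldha* (adjusted p = 0.0316) and *Pgls* (0.0142) passed as well.

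These age calls were fragile. None of the 6 was kept whichever replicate was left out: without replicate 2 no member was called in either direction, and without replicate 4 none was called higher. Calls over all tested genes fell as well, from 1475 to 548 without replicate 2 and to between 984 and 1193 without another replicate. In these fits the log2 difference was 0.21 to 0.31 for *Slc16a3* and 0.19 to 0.27 for *Slc16a1*. For *Slc16a3* the adjusted p was 0.0909 without replicate 2, 0.0599 without replicate 3 and 0.0701 without replicate 4. For *Slc16a1* it was 0.0783, 0.0764 and 0.0943 in the same order. That of *Taldo1* rose to 0.0665 without replicate 2. *Slc2a6* reached 0.199 without replicate 4, *Eno1* 0.176 and *Pfkp* 0.131 without replicate 2.

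After LPS aged and young cells differed in 13 members, 6 higher and 7 lower, or 41.9% of those tested, beside 14% of tested genes higher, 15% lower and 29% in either direction. The lower ones included both tested glucose transporter genes, *Hk2* and both PFKFB genes, of which *Slc2a1*, *Hk2* and *Pfkfb4* lost the call under another scaling. *Slc2a6* was lower by 0.68 ± 0.100 on the log2 scale (245 ± 14.2 against 393 ± 30.3 CPM, adjusted p = 2.17e-05) and *Slc2a1* by 0.22 ± 0.072 (adjusted p = 0.0227). *Pfkfb3*, *Pfkfb4*, *Hk2*, *Hif1a* and *Taldo1* were lower by 0.28 ± 0.068, 0.32 ± 0.094, 0.13 ± 0.043, 0.22 ± 0.065 and 0.29 ± 0.065. *Hk3* gave -0.28 ± 0.107 and just missed the threshold (adjusted p = 0.0524), but passed with the block (0.0330) and in DESeq2 (0.0373).

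The higher ones included *Ldha* and both lactate transporters. *Slc16a1* was higher by 0.29 ± 0.057 (adjusted p = 5.73e-04, no overlap), *Slc16a3* by 0.21 ± 0.065 (adjusted p = 0.0165), *Ldha* by 0.19 ± 0.058, *Tpi1* by 0.24 ± 0.059 and *Eno1* by 0.25 ± 0.076. *Pfkm*, which fell with LPS in both ages, was higher in aged cells by 0.28 ± 0.064 (27.0 ± 2.51 against 22.3 ± 1.66 CPM, adjusted p = 0.00226). *Pfkp* (0.20 ± 0.077, adjusted p = 0.0508) and *Gapdh* (0.14 ± 0.059, 0.0833) did not pass, but did with the block (0.0315 and 0.0182) and with library sizes alone (0.00984 and 0.00675). Aged and young LPS libraries did not overlap for 4 members, *Slc2a6*, *Pfkm*, *Slc16a1* and *Taldo1*, while 14.8% of tested genes did the same.

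The calls for *Pfkfb3*, *Pfkm*, *Slc16a1*, *Slc2a6*, *Taldo1* and *Tpi1* were kept whichever replicate was left out. The other 7 were lost in 1 or more of these fits, and without replicate 2 only 3 members were called higher and 3 lower. Calls over all tested genes went from 3717 to 2156 without replicate 2. *Slc16a3* then had an adjusted p of 0.118, *Hk2* 0.103 and *Ldha* 0.0927. *Hif1a* reached 0.134 and *Eno1* 0.0934 without replicate 1, *Slc2a1* 0.120 without replicate 3 and *Pfkfb4* 0.0969 without replicate 5. Without replicate 1 *Pdk1* (adjusted p = 0.0266), *Pgd* (0.0420) and *Hk3* (0.0375) passed. With library sizes alone the split was 10 higher and 3 lower. Under that scaling *Slc2a1* (adjusted p = 0.131), *Hk2* (0.37), *Pfkfb4* (0.0552) and *Hif1a* (0.076) lost the call. *Gpi1* (0.0163) and *Pdk1* (0.0109) gained one as higher, besides *Pfkp* and *Gapdh*. In the fit of only the groups compared, *Slc2a1* (0.0564), *Hk2* (0.083) and *Hif1a* (0.0639) lost the call and *Hk3* (0.025) gained one as lower. The age comparisons use the same libraries as the LPS comparisons, so agreement between them is not independent.

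**Figure D5:**
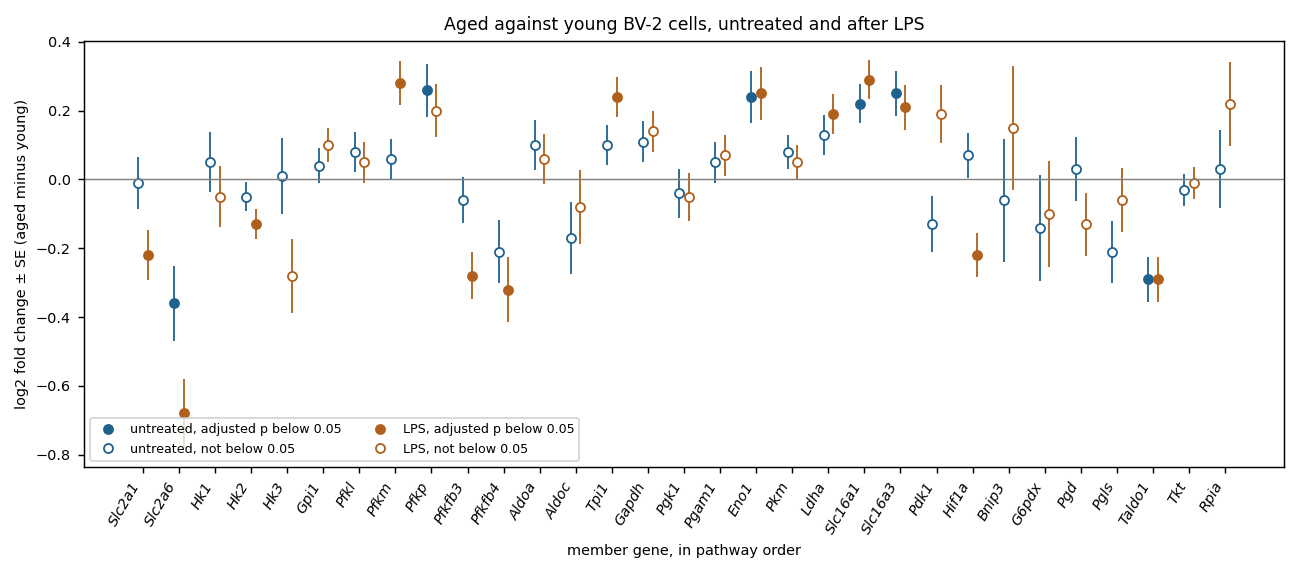
Log2 fold change (aged minus young, ± SE) of the 31 tested members in pathway order, untreated and after LPS. Filled points passed the adjusted threshold. *Slc16a1*, *Slc16a3* and *Eno1* are above 0 and called in both, and *Slc2a6* and *Taldo1* are below 0 and called in both.

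Whether the LPS response itself differed with age was tested as an interaction over the same 12799 genes. No member passed in edgeR's quasi-likelihood test, while 6.39% of tested genes passed, 4.12% as higher and 2.27% as lower, and 5 of 31 members had an unadjusted p below 0.05. DESeq2 called 1 member. The closest was *Hif1a*, with a response smaller in aged cells by 0.29 ± 0.092 on the log2 scale (adjusted p = 0.0631, 0.0384 with batch as a block and 0.0249 in DESeq2). The response of *Slc2a6* differed by -0.32 ± 0.148 (adjusted p = 0.224), that of *Slc2a1* by -0.21 ± 0.105 (0.265, and 0.0485 without replicate 1) and that of *Pdk1* by 0.32 ± 0.118 (0.117). For *Slc16a3* the difference was -0.04 ± 0.091 and for *Slc16a1* 0.07 ± 0.080. A lower level after LPS in aged cells is thus not shown to be a lower response for any of these genes by the unblocked edgeR test.

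Beyond the members, 113 further symbols of glycolysis, gluconeogenesis, glycogen, pyruvate, pentose phosphate and hypoxia were listed, of which 80 were tested. They went more down than up with LPS, 17 higher and 37 lower in young and 16 higher and 24 lower in aged cells, with medians of -0.15 and -0.06. Of all tested genes, 31.2% rose and 33.5% fell in young cells, and 27.5% rose and 26.9% fell in aged cells. After LPS 21 of the 80 were higher and 8 lower in aged cells, beside 14% and 15% of tested genes. Untreated, 3 were higher and 6 lower, beside 3.71% and 7.81% of tested genes. In the interaction 3 passed in each direction, beside 4.12% of tested genes as higher and 2.27% as lower. *Gpd2*, the mitochondrial glycerol 3-phosphate dehydrogenase, rose by 1.51 ± 0.055 in young and 0.97 ± 0.054 in aged cells, and the difference of -0.55 ± 0.076 passed (adjusted p = 2.01e-04). *Idnk*, a gluconokinase, likewise responded less in aged cells (-0.71 ± 0.114, adjusted p = 6.86e-04).

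Of the hypoxia genes, *P4ha1*, a collagen prolyl hydroxylase subunit, rose by 1.12 ± 0.056 and 0.74 ± 0.056, whereas *Ndrg1* fell by 1.92 ± 0.168 and 1.31 ± 0.159 and *Mxi1*, a MYC antagonist, by 1.49 ± 0.065 and 0.95 ± 0.063. The smaller fall of *Mxi1* in aged cells passed as a difference (0.54 ± 0.090, adjusted p = 8.96e-04). So did the smaller rise of *P4ha1* (-0.38 ± 0.078, adjusted p = 0.00445). For *Egln1*, a HIF prolyl hydroxylase, the difference of the LPS responses, aged minus young, also passed (0.44 ± 0.084, adjusted p = 0.00268). Its change with LPS within each age is not given here. Of 23 tested genes of the hypoxia list, 6 were higher and 8 lower after LPS in young cells, and 8 higher and 4 lower in aged cells. Tested genes as a whole also went both ways, with 31.2% higher and 33.5% lower in young cells. In aged cells these shares were 27.5% and 26.9%.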

How the data were processed

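RNA of 20 BV-2 cultures was sequenced from stranded poly(A) libraries. The authors aligned reads with STAR 2.6.1d and counted them per gene with featureCounts 1.5.1 after FastQC 0.11.8, versions per the labels, and deposited raw counts per Ensembl gene on GRCm38. Counting settings for strand, overlapping genes and multiple alignments are not given in the sources used here. All 20 sample columns were used, grouped by the labels, and 55227 of 55487 identifiers were found in the GENCODE vM21 annotation of GRCm38.

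Counts were fitted in edgeR 4.0.16 (R 4.3.3) with TMM scaling, filterByExpr and the quasi-likelihood F-test, with the 4 groups in 1 model and no covariate, and p-values adjusted by Benjamini-Hochberg over 12799 genes at 0.05. Fitting tools were tested on simulated data with known changes. SE is the log2 change over the square root of F. CPM and RPKM used TMM-scaled library sizes. A floor of 3 counts corresponds to 0.178 to 0.264 CPM before scaling, and covers counting error only.

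Replicate numbers carry batch labels 1 to 5, which pair the libraries. Deviations of same-numbered libraries correlated with a mean r of 0.1461 over 30 pairs of libraries (-0.2145 to 0.3935). Untreated and LPS libraries of the same age gave r of 0.1219 to 0.3935, and pairs across ages -0.2145 to 0.2748. A block within each age was not fitted. Batch as a block, fitted over both ages together, was an alternative. Others were DESeq2 1.42.0, its size factors, library sizes alone, no filter, at least 10 counts in every library, only the groups compared, an adjusted p below 0.01, and leaving out each replicate. Similar transcripts were found with BLAST 2.17.0. Promoters came from RefSeq.

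The members and lists were chosen with earlier results of these data known. The 35 members are all named. Of other genes, at most 4 per direction and comparison are named, ranked by the size of their change among called genes whose average reached 1 log2 CPM.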

Additional observations from a re-analysis of the deposited data

Results flagged for a closer look

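Values far from the other 4 libraries of a group, by Dixon's criterion for 5 samples (a critical value of 0.71 for the gap over the range), were found 4 times in 124 groups of member levels. Chance alone gives about 1 in 20 groups. *Pfkfb4* was low in young LPS replicate 4, at 17.9 CPM against 24.3 to 25.6 CPM in the others. *Bnip3* was high in young untreated replicate 1, at 14.9 CPM against 11.2 to 12.0 CPM. *G6pdx* was low in young LPS replicate 1, at 235 CPM against 372 to 445 CPM. *Tkt* was high in young untreated replicate 5, at 1030 CPM against 947 to 969 CPM.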

How the results depend on the processing

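The 31 members in 5 comparisons were recomputed under 13 alternatives, which gave 1984 values. Of these 1816 kept their direction and side of the threshold, 116 lost the call, 44 gained one, and 8 changed sign with a call on either side, each with library sizes alone. Those were, in young cells with LPS, *Pfkl* -0.04, *Pgam1* -0.03, *Eno1* -0.03, *Taldo1* -0.04 and *Ldha* -0.14, and in aged cells *Pfkl* -0.00, *Ldha* -0.01 and *Gpi1* -0.13. *Ldha* in young cells and *Gpi1* in aged cells were called under that scaling and not in the fit reported. The same scaling gave 9 higher and 12 lower calls in young and 10 and 10 in aged cells with LPS, 10 and 3 for age after LPS, and 2 higher in the interaction; the lower median it gives over all genes stands in the report.

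For age in untreated cells, fitting only the groups compared gave 1 lower call, and an adjusted p below 0.01 left 0 higher and 1 lower. Leaving out each replicate gave 0 to 3 higher and 0 to 2 lower. For age after LPS the stricter threshold left 3 higher and 3 lower, and leaving out each replicate gave 3 to 8 in each direction. In the interaction DESeq2 and the block each called 1 member lower, *Hif1a*, and leaving out each replicate gave 0 to 1 lower. With LPS, leaving out each replicate gave 13 to 16 higher and 5 to 6 lower in young and 13 to 18 and 3 to 5 in aged cells, where the stricter threshold left 3 lower. The pairing by batch changed 10 calls, each of them gained and given beside its result, and no other. The causes of these shifts were not tested. Fitting only the groups compared cannot be done for the interaction. SEs of 0.043 to 0.181 in the LPS comparisons limit what small changes can show.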

Other observations

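*G6pdx* varied between libraries within each group, and the lowest library was the same untreated and after LPS. In young cells replicate 1 held the lowest level untreated (243 CPM, others 276 to 331) and after LPS (235 CPM). In aged cells replicate 3 held the lowest level untreated (208 CPM, others 261 to 293) and after LPS (226 CPM, others 344 to 414). *Pgd* was lowest in the same libraries after LPS, at 692 CPM in young replicate 1 and 634 CPM in aged replicate 3. What the 2 genes share in these libraries was not tested.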
